A study of Mus musculus with 6 samples.

Results

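The perineuronal net and lectican genes examined here are 10 genes chosen by name from the rows of a deposited gene count table: the lecticans Acan, Bcan, Ncan and Vcan, the link protein genes Hapln1, Hapln2 and Hapln4, the tenascins Tnr and Tnc, and the receptor phosphatase gene Ptprz1. All 10 were among the 20620 genes listed, and all 10 passed the filter on low counts. They were measured by RNA sequencing of the hippocampus of 6 male mice on a C57BL/6J background, 1 library per mouse. The 3 n-Braf mice (genotype Braf Q241R/+ ;CaMKII-Cre) were 33, 32 and 34 weeks old, and the 3 control mice (genotype Braf Q241R Neo/+) were 32, 32 and 31 weeks old. Every mouse thus carried 1 Braf allele with the Q241R substitution, a change in a kinase of the RAS-ERK pathway which the series title ties to a mouse model of cardio-facio-cutaneous (CFC) syndrome. In the controls the allele kept its Neo cassette. In n-Braf mice the CaMKII-Cre transgene places the mutant in mature excitatory neurons, so the Cre transgene and the loss of the cassette differ between the groups together with the mutant protein and cannot be told apart from it. Wild-type mice were not analysed here.

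Perineuronal nets are lattices of extracellular matrix that wrap the cell body and proximal dendrites of some neurons. In the hippocampus they are best known around parvalbumin interneurons and CA2 pyramidal neurons, and they are studied for their part in limiting plasticity and in memory. A lectican is a core protein that carries chondroitin sulfate chains; its head binds hyaluronan, its tail binds tenascin-R, and a link protein clamps the head to the hyaluronan chain. Neurons, astrocytes and cells of the oligodendrocyte lineage each make different members. In bulk tissue fewer cells of a type and less RNA per cell cannot be told apart.

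The n-Braf libraries held between 30152839 and 31832245 assigned counts and the control libraries between 25227112 and 27608256. The 10 genes took between 29883 and 32331 of these counts per n-Braf library, against 23564 to 25408 per control library. Braf itself was at 185, 184 and 205 CPM in n-Braf, against 116, 123 and 116 CPM in the controls (CPM, the count scaled to library size with TMM factors), with no overlap between the groups (log2 fold change 0.69, SE 0.07, edgeR adjusted p = 0.0533). Braf passed the threshold in DESeq2 (adjusted p = 6.12e-14), edgeR's exact test (1.56e-09) and robust quasi-likelihood (0.0110), missed it in limma-voom (0.0594), and had 2.13e-08 in the authors' deposited table. Markers of choroid plexus were high in control libraries 1 and 2. The 12 tested of 14 such markers summed to between 92.1 and 111 CPM in n-Braf, against 3645, 2055 and 141 CPM in controls 1, 2 and 3, and none was at 0 in any library. The 5 tested of 8 ependymal markers summed to 18.7, 14.9 and 16.9 CPM in n-Braf 1, 2 and 3. In controls 1, 2 and 3 they summed to 49.1, 40.5 and 25.2 CPM. All 5 were lower in n-Braf without overlap, beside 5.44% of all genes. Control 1 also stood apart in its counts as a whole, where chi-square per degree of freedom was 52.3 to 70.7 against the other libraries and 8.99 to 14.3 for pairs without it. Hippocampal markers were present throughout: Prox1, of dentate granule neurons, lay between 79.8 and 148 CPM in n-Braf and between 95.6 and 123 CPM in the controls.

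None of the 10 genes passed an adjusted p of 0.05 in edgeR's quasi-likelihood test over 20604 genes. That test called 0 genes in the whole table (percent called 0), so a count of 0 among the 10 says nothing particular about them. At an unadjusted p of 0.05 it placed 0 of the 10, beside 6.82% of all genes. By direction the quasi-likelihood test had 3.09% of all genes higher and 3.73% lower at that level. DESeq2 placed 3 of the 10 there, 1 higher and 2 lower, beside 2.62% of all genes higher and 2.97% lower in the same tool. Limma-voom placed 2 of the 10, beside 6.22% of all genes, robust quasi-likelihood 2, beside 6.31%, and edgeR's exact test 0, beside 5.5%. Each of these tools called 0 of the 10 after adjustment. In the authors' deposited table all 10 had an adjusted p of 0.999671507. Of the 10 genes 7 had a positive log2 fold change (n-Braf over control) and 3 a negative one, with a median of 0.06, where all genes had a median of -0.0042 and 49.0% were positive. The values ran from -0.56 for Acan to 0.18 for Tnr. The groups did not overlap in 2 of the 10 genes, Ncan and Hapln4, both higher in n-Braf; over all genes 6.09% were higher without overlap and 5.44% lower.

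**Figure D1:**
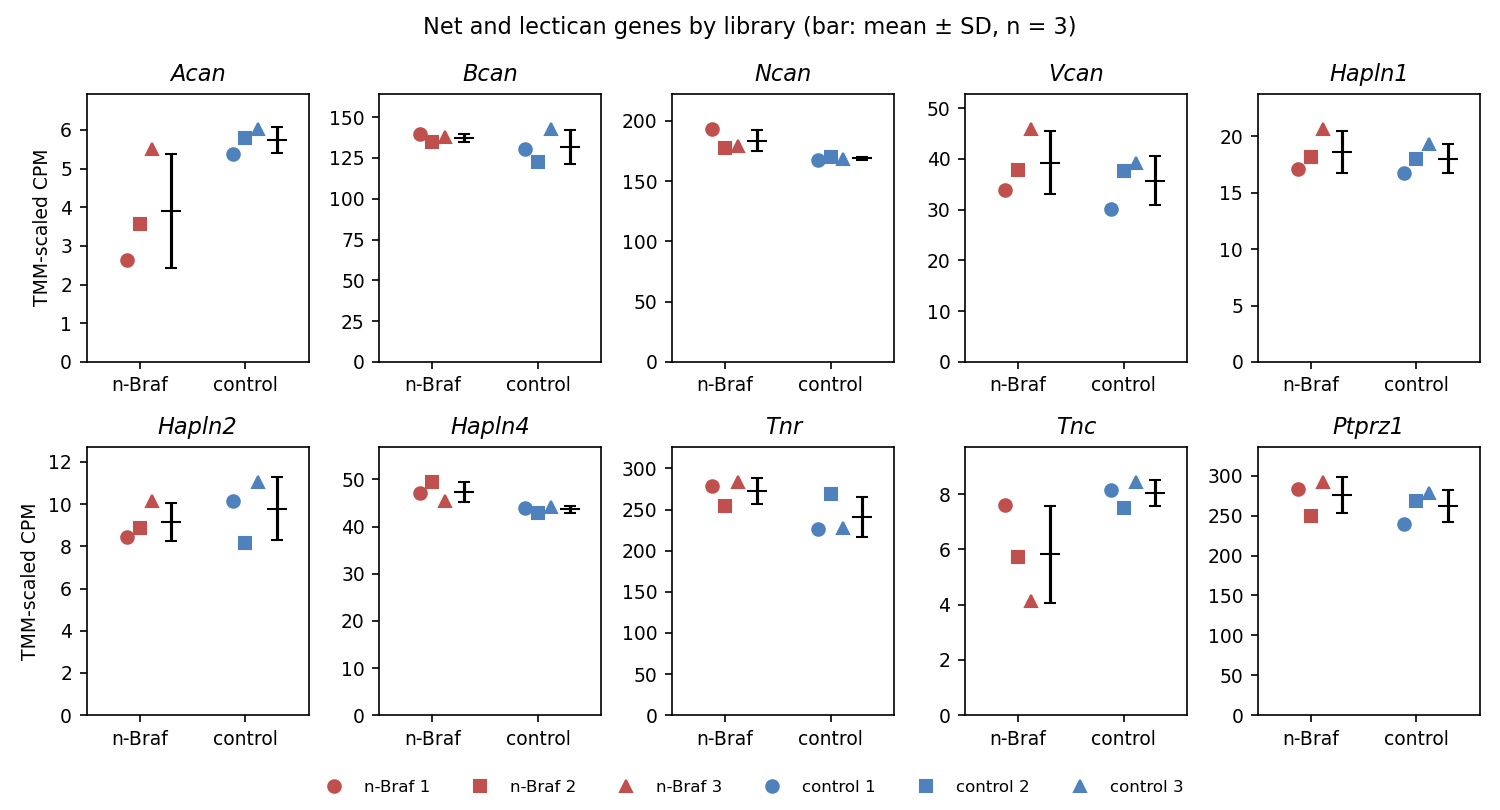
TMM-scaled CPM of each gene in each library, with n-Braf left of control and symbols for the replicate number; the black bar is the mean ± SD of 3 libraries. The 3 n-Braf libraries spread widely in Acan (2.63 to 5.52 CPM) and in Tnc (4.12 to 7.60 CPM), while the controls lay close together in both.

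Levels were compared between genes only per length, as CPM per kilobase of merged exons, over all 6 libraries. Bcan, which encodes brevican, the lectican of mature brain made by astrocytes and by cells of the oligodendrocyte lineage, was highest at 33.1 ± 1.82 CPM per kilobase (SD, n = 6). Ncan, encoding neurocan, followed at 24.5 ± 1.36. Tnr (19.9 ± 1.94) and Ptprz1 (18.9 ± 1.43) came next, and their ranges over the libraries overlapped. Hapln4 stood apart from its neighbours in this order at 11.6 ± 0.620. Below it Hapln2 (3.99 ± 0.487), Hapln1 (3.11 ± 0.249) and Vcan (2.59 ± 0.368) overlapped, each with the next. Tnc (0.892 ± 0.215) and Acan (0.645 ± 0.186) were lowest and also overlapped. Acan, a gene often used to mark nets, thus had the lowest mean of the 10 per length, within the spread of Tnc.

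**Figure D2:**
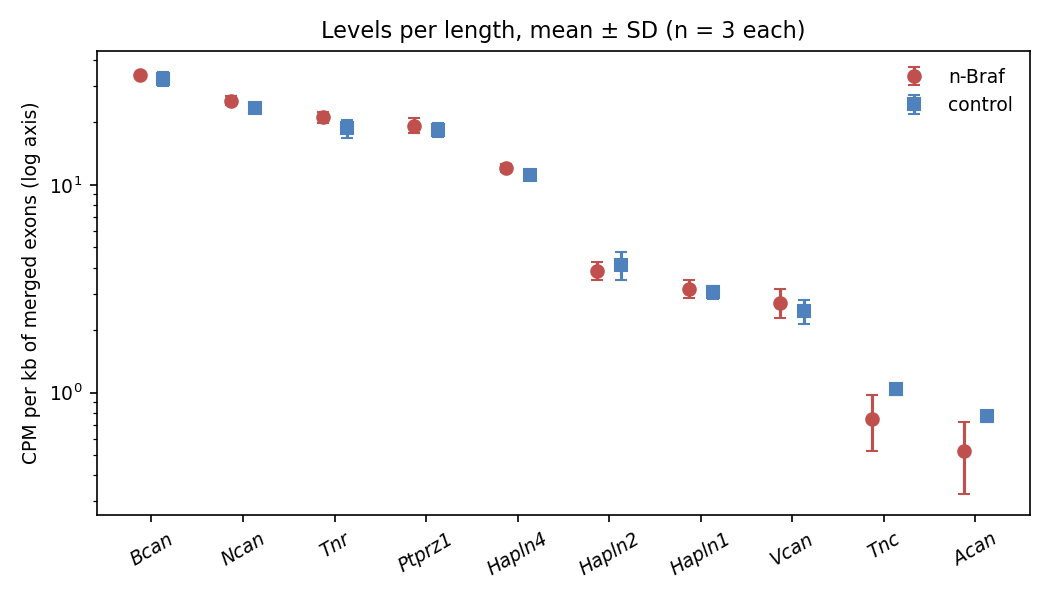
CPM per kilobase of merged exons on a log axis, mean ± SD of 3 n-Braf (circles) and 3 control libraries (squares), in order of the mean over all 6. Bcan leads at 33.1 and Acan is lowest at 0.645 CPM per kilobase over the 6 libraries.

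Acan encodes aggrecan, the lectican that nets around parvalbumin interneurons depend on. The gene is on the plus strand of chromosome 7, from 79053483 to 79115099 (build GRCm38, as are the positions that follow). It was at 2.63, 3.56 and 5.52 CPM in n-Braf, against 5.37, 5.80 and 6.03 CPM in the controls. The n-Braf libraries 1 and 2 lay below every control, while n-Braf 3 lay above control 1, so the groups overlapped. Acan averaged 3.90 ± 1.47 CPM in n-Braf libraries, against 5.73 ± 0.336 CPM in controls (SD, n = 3 each), with a log2 fold change of -0.56 (SE 0.25, 95% interval -1.12 to 0.0072, edgeR adjusted p = 0.734). The counts behind these levels were 84, 113 and 162 in n-Braf and 144, 155 and 155 in the controls. The size moved with single libraries: the log2 fold change became -0.89 (adjusted p = 0.468) when n-Braf 3 was left out and -0.34 (adjusted p = 0.937) when n-Braf 1 was. In a fit with age, in which n-Braf mice were 32 to 34 and controls 31 to 32 weeks old, Acan was at -0.88 (adjusted p = 0.711).

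Tnc encodes tenascin-C, a matrix glycoprotein of development and injury that astrocytes make and that fibroblasts of connective tissue make too. The gene is on the minus strand of chromosome 4, from 63959785 to 64047015. Its levels were 7.60, 5.73 and 4.12 CPM in n-Braf, against 8.17, 7.52 and 8.45 CPM in the controls. Here n-Braf 3 was the lowest library and n-Braf 1 overlapped the controls, the reverse of the order of these libraries in Acan. Tnc averaged 5.82 ± 1.74 CPM in n-Braf libraries, against 8.04 ± 0.478 CPM in controls (SD, n = 3 each). The log2 fold change was -0.47 (SE 0.21, 95% interval -0.93 to 0.0002, edgeR adjusted p = 0.732). Leaving out n-Braf 1 gave -0.71 (adjusted p = 0.926), and leaving out n-Braf 3 gave -0.27 (adjusted p = 0.769). A fit with age gave -0.22 for Tnc (adjusted p = 0.943). An exon of 8030451A03Rik, a transcript on the opposite strand, overlaps an exon of Tnc, and the strand setting of the counting was not given, so reads of the pair may not be told apart.

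The promoters of Acan and Tnc are shown because these genes had the largest differences of the 10 and differ in base composition, with 74% G and C in the Acan window and 47.3% in the Tnc window. Each runs from 250 bases before to 50 bases after a start listed by RefSeq on GRCm38.p6, written 5′ to 3′ on the gene's own strand. RefSeq starts can differ from the GENCODE starts used for the gene positions. The Acan window is chr7:79052976-79053275 on the plus strand, and it ends before the GENCODE start of Acan. The Tnc window, the first of 2 listed, is chr4:64046966-64047265 on the minus strand. Capitals mark a match to a motif searched on both strands.
Acan: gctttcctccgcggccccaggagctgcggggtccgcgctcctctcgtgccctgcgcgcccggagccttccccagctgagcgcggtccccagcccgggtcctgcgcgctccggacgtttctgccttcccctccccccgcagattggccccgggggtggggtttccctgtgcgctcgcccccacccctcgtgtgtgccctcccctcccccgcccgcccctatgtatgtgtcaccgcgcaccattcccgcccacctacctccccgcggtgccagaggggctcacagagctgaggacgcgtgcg
Tnc: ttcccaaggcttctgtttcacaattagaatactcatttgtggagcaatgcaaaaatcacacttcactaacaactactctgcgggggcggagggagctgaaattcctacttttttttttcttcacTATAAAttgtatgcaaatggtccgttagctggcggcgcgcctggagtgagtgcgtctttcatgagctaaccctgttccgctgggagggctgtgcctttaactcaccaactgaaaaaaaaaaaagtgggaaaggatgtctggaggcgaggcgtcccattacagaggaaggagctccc
The capitals in Tnc are the TATA motif TATAAA, 126 bases before this start. In the second Tnc window, not shown, the same letters lie 205 bases before its start. That window also holds tatataag nearer its start, which the search letters do not match. A further 3 motifs were searched, AP-1 (TGANTCA), the cyclic AMP response element (TGACGTCA) and an ETS motif (CCGGAAG), and none of the 3 was in any window of the 9 members with a promoter entry. Among 32851 promoter windows of the same length 7.81% held the AP-1 letters, 1.79% the cyclic AMP element, 8.86% the ETS letters and 13.6% the TATA letters. Besides Tnc, the Ncan window held TATAAA on the strand opposite to the gene (TTTATA on its own strand), 11 bases before its start. A match is a description of letters, and no match says only that these letters are not in these windows. Hapln4 had no entry.

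Markers of other tissue differed between the same libraries. The 9 tested of 9 leptomeningeal and fibroblast markers summed to 110, 83.0 and 34.5 CPM in n-Braf 1, 2 and 3, the same order as Tnc. They summed to 230, 105 and 86.7 CPM in controls 1, 2 and 3, where Tnc had another order (8.17, 7.52 and 8.45 CPM). Igf2 alone gave 104, 51.5 and 19.8 CPM of these control sums, high in the 2 controls with high choroid plexus markers. Col1a1 and Col3a1 were instead lower in control 2 than in control 3. Dcn, the proteoglycan decorin of that list, was at 23.2, 20.6 and 9.26 CPM in n-Braf, against 30.1, 25.6 and 30.8 CPM in the controls. It was picked after its values were seen and was the 1 gene of the list without overlap. With the mean of that list as a covariate Tnc had a log2 fold change of -0.34 (adjusted p = 0.782) and Acan one of -0.82 (adjusted p = 0.597). The 10 tested of 10 neocortical markers summed to 557, 531 and 405 CPM in n-Braf, against 445, 350 and 524 CPM in the controls. With their mean as a covariate Acan was at -0.39 (adjusted p = 0.988) and Tnc at -0.75 (adjusted p = 0.988). Mature oligodendrocyte markers, 12 tested of 12, summed to 1551, 1569 and 2115 CPM in n-Braf, against 2141, 1841 and 2361 CPM in the controls, low in the 2 n-Braf libraries where Acan was low. With their mean as a covariate Acan was at -0.22 (adjusted p = 0.998) and Tnc at -0.74 (adjusted p = 0.998). No marker of these 3 lists was at 0 in any library. Of the 11 tested of 11 astrocyte markers, 8 had positive and 3 negative log2 fold changes (median 0.05). Their mean log2 deviation from the 6 libraries was 0.0059, 0.025 and 0.0092 in n-Braf 1, 2 and 3. It was 0.0016, -0.061 and 0.019 in controls 1, 2 and 3. The astrocyte list was thus not low in n-Braf 3, where Tnc was lowest. No fit took the mean of the astrocyte list as a covariate. The part of tissue makeup in the Acan and Tnc values was not tested beyond the fits above.

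**Figure D3:**
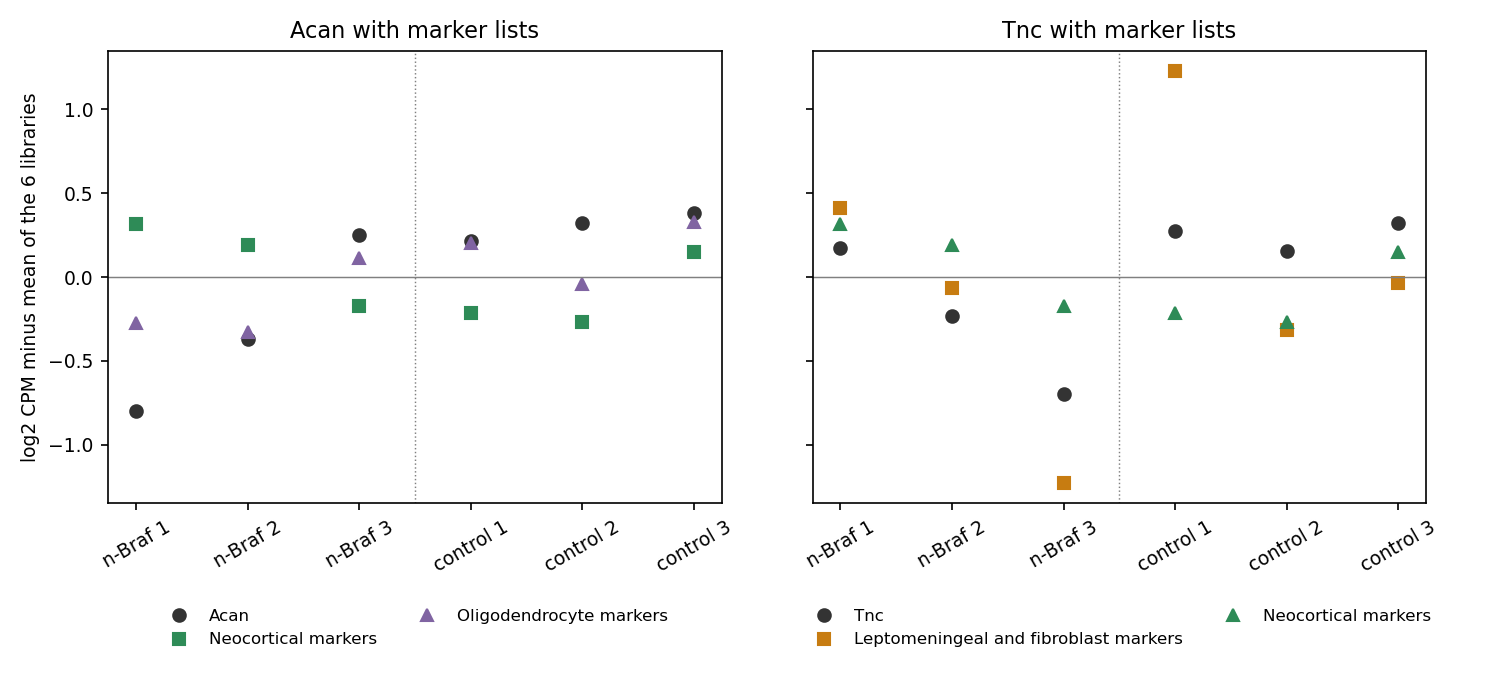
Log2 CPM of Acan (left) and Tnc (right) minus the mean of the 6 libraries, beside the mean deviation of marker lists, by library with n-Braf left of the dotted line. In n-Braf 3 Tnc (-0.70) and the leptomeningeal list (-1.23) are both lowest, and Acan is lowest in n-Braf 1 (-0.80), where the neocortical list is highest (0.32). Among the controls the leptomeningeal list is highest in control 1 (1.23) and Tnc in control 3 (0.32). Acan is also highest in control 3 (0.38), where the neocortical list is the highest of the controls (0.15).

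Markers of the cells that bear nets were read beside Acan. The 11 tested of 11 parvalbumin interneuron markers, some shared with other interneurons, summed to 765, 810 and 783 CPM in n-Braf, against 693, 750 and 786 CPM in the controls. All 11 had positive log2 fold changes (median 0.09), 0 passed in edgeR's test, and 0 had an unadjusted p under 0.05. Pvalb, the calcium-binding protein that names these cells, was at 8.57, 10.5 and 12.0 CPM in n-Braf, against 8.99, 10.2 and 10.1 CPM in the controls, so the groups overlapped. With the mean of these markers as a covariate Acan was at -0.53 (adjusted p = 0.9999). Of the 8 CA2 markers tested of 8, 4 were higher and 4 lower (median -0.06). Rgs14, a signalling regulator known from CA2, was at 31.4, 25.3 and 34.8 CPM in n-Braf, against 37.03, 33.1 and 32.4 CPM in the controls. The CA2 list also held Sostdc1, which did not exceed 1.19 CPM in n-Braf or in control 3 but reached 18.2 CPM in control 1 and 9.98 CPM in control 2, the pattern of the choroid plexus markers.

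The other lecticans had log2 fold changes nearer to 0 than that of Acan. Ncan, on chromosome 8 at 70093085 to 70120873, was at 194, 178 and 179 CPM in n-Braf, against 168, 170 and 168 CPM in the controls. Every n-Braf library was above every control, by a small step: the log2 fold change was 0.12 (SE 0.06, 95% interval -0.017 to 0.26, edgeR adjusted p = 0.783). Bcan, on chromosome 3 at 87987531 to 88000230, was at 139, 135 and 138 CPM in n-Braf, against 131, 122 and 143 CPM in the controls, whose range enclosed all the n-Braf libraries. Its log2 fold change of 0.06 had a 95% interval of -0.0999 to 0.22, which corresponds to between 0.933 and 1.16 times the control level. Vcan encodes versican, a lectican of white matter and of oligodendrocyte precursors, and lies on chromosome 13 at 89655312 to 89742509. It was at 33.9, 37.8 and 46.0 CPM in n-Braf, against 30.1, 37.6 and 39.2 CPM in the controls. The groups overlapped, and the log2 fold change of Vcan was 0.14 (SE 0.13, 95% interval -0.16 to 0.43, edgeR adjusted p = 0.914). Leaving out n-Braf 3 gave 0.0055 for Vcan, leaving out control 1 gave 0.029, and leaving out n-Braf 1 gave 0.23.

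Link proteins stabilise the bond between a lectican and hyaluronan. Hapln4, or Bral2, is found in nets and in the neuropil around them, and lies on chromosome 8 at 70083457 to 70090862. It was at 47.1, 49.5 and 45.4 CPM in n-Braf, against 43.9, 42.9 and 44.2 CPM in the controls, without overlap. The log2 fold change of Hapln4 was 0.12 (SE 0.06, 95% interval -0.029 to 0.26, edgeR adjusted p = 0.802). Hapln1, or Crtl1, the link protein whose expression marks net formation in neurons, was at 17.1, 18.2 and 20.7 CPM in n-Braf, against 16.7, 18.0 and 19.4 CPM in the controls, with 0.05 as its log2 fold change (SE 0.11, adjusted p = 0.974). Hapln2, or Bral1, belongs to the matrix at nodes of Ranvier and is made by oligodendrocytes. Its levels were 8.42, 8.84 and 10.1 CPM in n-Braf, against 10.1, 8.15 and 11.1 CPM in the controls, and the log2 fold change was -0.10 (SE 0.14, adjusted p = 0.954). The groups overlapped in Hapln1 and in Hapln2. With the mean of the mature oligodendrocyte markers as a covariate Hapln2 was at 0.16 (adjusted p = 0.998), against -0.10 without it.

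Each link protein gene lies beside a lectican gene with 0 protein-coding genes between them in GENCODE M21. Ncan and Hapln4 sit tail to tail 2222 bases apart, and both were higher in every n-Braf library than in every control. Vcan and Hapln1 sit tail to tail 43659 bases apart. Bcan and Hapln2 lie on the same strand of chromosome 3, 21519 bases apart. Acan and Hapln3, a link protein gene that is not among the 10, end 2 bases apart on opposite strands. Hapln3 was low, at 0.688, 0.441 and 0.272 CPM in n-Braf, against 0.522, 0.374 and 0.623 CPM in the controls (log2 fold change -0.11, SE 0.45, adjusted p = 0.989).

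Vcan and Hapln1 put the 6 libraries in the same order, from control 1 at the low end through n-Braf 1, control 2, n-Braf 2 and control 3 to n-Braf 3 at the top. Across these libraries, which share a preparation and differ in tissue makeup, Pearson's r of their log2 CPM was 0.96, given as a description. It was 0.63 for Ncan with Hapln4 and 0.56 for Bcan with Hapln2. The log2 ratio of Hapln4 to Ncan, per length, was -1.17, -0.97 and -1.10 in n-Braf and -1.06, -1.11 and -1.06 in the controls, a difference of -0.0032. The ratio of Hapln1 to Vcan differed by -0.09 and that of Hapln2 to Bcan by -0.15. For 5 such ratios, including Hapln3 to Acan and Tnr to Tnc, exact two-sided permutation tests gave p-values of 0.10 to 1 (adjusted over the 5, 0.50 to 1), and 3 against 3 libraries cannot go below 0.10. The ratio of Tnr to Tnc was at that smallest value: its log2 was 4.47, 4.75 and 5.38 in n-Braf and 4.07, 4.43 and 4.02 in the controls, higher in every n-Braf library, with a difference of 0.69 and an adjusted p of 0.50.

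**Figure D4:**
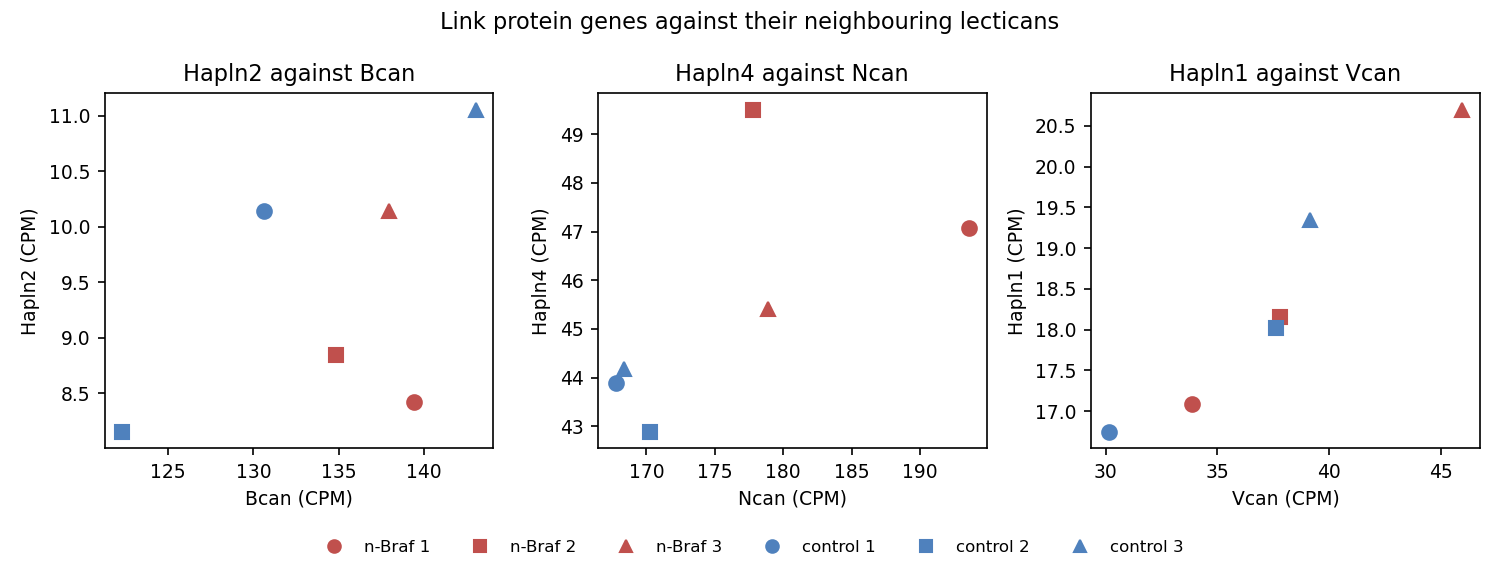
CPM of 3 link protein genes against the lectican gene beside each, 1 point per library (red n-Braf, blue control; symbols give the replicate number). Vcan and Hapln1 order the libraries alike (r = 0.96), and in Ncan with Hapln4 the 3 n-Braf libraries lie above the 3 controls on both axes; the axes do not start at 0.

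Tnr encodes tenascin-R, made by oligodendrocytes and some neurons, which cross-links lecticans in the net. The gene lies on chromosome 1 at 159523769 to 159931729, and an exon of Gm38039, on the opposite strand, overlaps one of its exons. Tnr was at 278, 254 and 284 CPM in n-Braf, against 226, 269 and 228 CPM in the controls. Control 2 lay above n-Braf 2, so the groups overlapped. The log2 fold change was 0.18 (SE 0.08, 95% interval -0.013 to 0.37, edgeR adjusted p = 0.766). Leaving out control 2 gave 0.26 (adjusted p = 0.579), and a fit with age gave 0.06 (adjusted p = 0.963). Ptprz1 encodes a receptor-type tyrosine phosphatase whose secreted form is the proteoglycan phosphacan, and which binds tenascins, contactin 1 and pleiotrophin. On chromosome 6 at 22875502 to 23052916, it was at 284, 250 and 292 CPM in n-Braf, against 240, 269 and 278 CPM in the controls, and its log2 fold change was 0.07 (SE 0.08, adjusted p = 0.937). Gene-level counts do not separate the receptor from phosphacan. With 1 library left out the log2 fold change ranged from 0.0090 to 0.14 for Ptprz1, from 0.0063 to 0.12 for Bcan, from -0.21 to -0.0024 for Hapln2 and from 0.077 to 0.14 for Ncan.

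**Figure D5:**
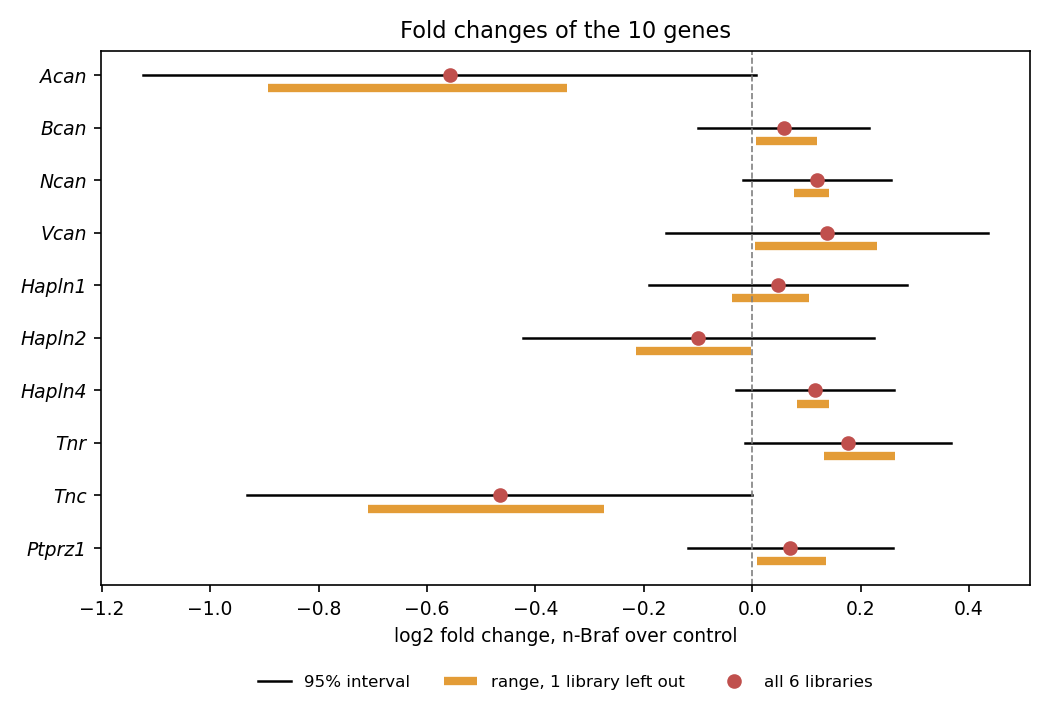
Log2 fold change (n-Braf over control) of each gene from edgeR, with its 95% interval (black) and, in orange, the range when 1 library is left out. Acan and Tnc are farthest below 0, their intervals reach 0.0072 and 0.0002, and all 10 intervals include 0.

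The genes also differed in how much they varied within a group. In n-Braf the coefficient of variation was 37.8% for Acan and 29.98% for Tnc, against 5.87% and 5.95% in the controls. At control counts of 144 to 155 for Acan and 201 to 219 for Tnc, the control values are no larger than counting error alone would give. Each rests on 3 libraries, and the difference in spread between the groups was not tested. Over all 6 libraries the coefficient was 28.8% for Acan and 24.1% for Tnc, and between 5.35% (Hapln4) and 14.2% (Vcan) for the other 8. Genes with a mean of at least 5 CPM, 11748 in all, had a median of 8.39%. Acan itself averaged less than that CPM over the 6 libraries. The median takes in genes at all higher levels, so it is not matched to the low counts of Acan and Tnc. Genes whose log2 CPM followed a member most closely over the 6 libraries were sought among genes of at least 5 CPM. There r above 0.95 was common by number, with 11 to 68 such genes per member. Closest to Acan were Gabpb2 (r = 0.99), Prpsap1 (0.99) and Itga6 (0.99). Vcan was followed most closely by Adamts20 (0.99), a protease of the family that cleaves versican, then by Gm48887 (0.99) and Ankrd28 (0.99). For Tnc the closest were Plgrkt (0.99), Tmem176b (0.97) and Exosc3 (0.97). The first gene in the order was Zbtb10 for Bcan, Gm17081 for Ncan, Rabggtb for Hapln1, Nup50 for Hapln2, Gm42433 for Hapln4, B230334C09Rik for Tnr and 2410004B18Rik for Ptprz1.

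Genes that build, cut or bind the net were read from lists. In each of 4 lists 0 genes passed in the quasi-likelihood test. Among proteases that cut lecticans and their inhibitors 14 of 16 were tested, 4 of them higher and 10 lower, with a median of -0.14 on the log2 scale. The smallest p was that of Adamts1, an aggrecanase and versicanase. It was at 16.7, 16.5 and 13.9 CPM in n-Braf, against 27.8, 22.0 and 20.1 CPM in the controls, without overlap (log2 fold change -0.57, SE 0.14, unadjusted p = 0.00226, adjusted p = 0.527). DESeq2 placed Adamts1 past the threshold (log2 fold change -0.57, adjusted p = 0.0312), the 1 gene it called in these lists. Over all 20604 genes DESeq2 called 29 higher and 49 lower. With controls 1 and 2, the libraries rich in choroid plexus markers, left out, Adamts1 was at -0.35 (adjusted p = 0.9996). Adamts9, of the same family, was at 16.5, 17.8 and 15.2 CPM in n-Braf, against 18.9, 20.1 and 19.8 CPM in the controls, also without overlap (adjusted p = 0.685). Of the 14 tested 2 were thus lower without overlap, beside 5.44% of all genes. The other Adamts genes of the list went both ways with overlapping groups. Adamts4, Adamts5 and Adamts15 had log2 fold changes of -0.33, -0.30 and -0.26, and Adamts8 and Adamts20 of 0.32 and 0.14. These were named after their values were seen, as were Has3, Ptn and Cntn1 below.

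Of the genes of chondroitin sulfate synthesis, which make the chains the lecticans carry, 20 of 21 were tested, with 15 higher and 5 lower and a median of 0.03. Ust, which sulfates uronic acid in these chains, was at 51.8, 51.0 and 59.1 CPM in n-Braf, against 49.7, 44.5 and 48.1 CPM in the controls (log2 fold change 0.19, SE 0.08, unadjusted p = 0.0440, adjusted p = 0.730). Csgalnact1, which starts the chains, was at 12.4, 10.5 and 11.7 CPM in n-Braf, against 12.7, 13.9 and 13.7 CPM in the controls (log2 fold change -0.22, adjusted p = 0.771). Of 13 hyaluronan genes 12 were tested, 3 higher and 9 lower, with a median of -0.23. Hyal1, a lysosomal hyaluronidase, was at 3.07, 3.27 and 2.52 CPM in n-Braf, against 4.998, 4.86 and 2.73 CPM in the controls, high in the 2 controls with high choroid plexus markers. Hyal3, a related gene, lay between 0.0939 and 0.389 CPM. Has3, a hyaluronan synthase, was at 7.98, 7.14 and 8.65 CPM in n-Braf, against 6.79, 7.22 and 6.39 CPM in the controls. Among ligands, receptors and partners of the net 14 of 15 were tested, 11 higher and 3 lower, with a median of 0.04. Mdk, the growth factor midkine that binds PTPRZ1, had a log2 fold change of -0.35 (adjusted p = 0.839) and Cspg5, neuroglycan C, one of 0.14 (adjusted p = 0.844). Mdk was at -0.13 without control 1, the library highest in choroid plexus markers, and Cspg5 was at 0.049 without n-Braf 1 and at 0.23 without n-Braf 3. Ptn, which encodes pleiotrophin, was at 190, 137 and 148 CPM in n-Braf, against 169, 137 and 172 CPM in the controls. Cntn1, the contactin that phosphacan binds, had a log2 fold change of 0.0028 (SE 0.07).

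Against control 3 alone, where the spread is that of the n-Braf libraries and is taken to hold for the single control, the 10 genes had a median log2 fold change of -0.034, with 0 past the threshold. Acan was then at -0.63, Tnc at -0.54, Tnr at 0.26, Ncan at 0.12 and Hapln4 at 0.099. Bcan (-0.058), Hapln1 (-0.054) and Ptprz1 (-0.014) turned negative in that comparison. Control 3 still lay above every n-Braf library in the summed choroid plexus markers (141 CPM) and ependymal markers (25.2 CPM).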

How the data were processed

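RNA of the hippocampus of 3 n-Braf and 3 control mice was extracted with an RNeasy kit, and libraries were made from 10.0 ng of total RNA with a stranded SMART-Seq kit, per the labels' protocols. The submitters' processing notes name bcl2fastq 2.20, fastp 0.20.1, STAR, RSEM, edgeR 3.36.0 and the build mm10; no source used here gives the annotation or strand setting. Deposited values are RSEM expected counts per gene, and per the file headers the authors' log2 fold change, log2 CPM, p-value and adjusted p-value of one comparison, whose direction was read as n-Braf over control.

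Expected counts were rounded and tested here with edgeR 4.0.16 (R 4.3.3): TMM scaling, a minimum count of 10 in filterByExpr, the quasi-likelihood test and Benjamini-Hochberg adjustment over 20604 genes with a threshold of 0.05. Standard errors were taken from the log2 fold change and the F statistic. DESeq2 1.42.0, limma 3.58.1 (voom), edgeR's exact test, other scalings and filters, age, marker covariates and leaving out libraries were alternatives. The fits were tested on simulated data, with an outcome that is not given here. Libraries held between 25227112 and 31832245 counts. The intervals given are those of fold changes and cover the spread between mice.

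The 10 genes, the lists and the tests were chosen with earlier results of these data known. Each member is named, and of each companion list the 2 genes with the smallest p. For each member the gene with the highest Pearson correlation among those of at least 5 CPM is named. For Acan, Vcan and Tnc the 3 highest are named. Marker genes named singly were chosen after their values were seen. Positions and exon lengths came from GENCODE M21 and promoters from RefSeq.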

Additional observations from a re-analysis of the deposited data

How the results depend on the processing

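None of the 10 genes passed the threshold under any alternative run. Acan, Ncan, Hapln4, Tnr and Tnc kept their sign under all of them. For all genes, where the quasi-likelihood test called 0 (1405 at an unadjusted p of 0.05), DESeq2 called 78, the exact test 66, robust quasi-likelihood 5, an adjusted p of 0.1 gave 2, leaving out mitochondrial, ribosomal RNA and the 20 most abundant genes 1, the neocortical covariate 2, the leptomeningeal covariate 3, and leaving out controls 1 and 2 gave 3. Leaving out 1 library gave between 0 and 82, the 82 without control 3. The median of the 10 genes, 0.06, lay between 0.014 and 0.12 with 1 library left out, and was -0.054 with the choroid plexus covariate, 0.14 with the oligodendrocyte covariate and -0.034 without controls 1 and 2.

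Signs turned as follows, and the cause was not tested. With age as a covariate Ptprz1 was at -0.0016, Hapln3 at 0.35 and Camk2a, an excitatory neuron kinase read as a check, at -0.098. With the choroid plexus covariate Bcan was at -0.056, Vcan at -0.045, Hapln1 at -0.075, Ptprz1 at -0.051 and Hyal1 at 0.16, and with the oligodendrocyte covariate Hapln2 was at 0.16. With 1 library left out Hapln1 ranged from -0.037 (without n-Braf 3) to 0.10 (without n-Braf 1) and Pvalb from -0.034 to 0.21 on leaving out the same libraries; without n-Braf 3 Hapln3 was at 0.15; without control 1 Hapln1 was at -0.0044; without control 3 Hapln3 was at 0.066. Without controls 1 and 2 Bcan was at -0.058, Hapln1 at -0.054, Ptprz1 at -0.014 and Hyal1 at 0.12. With the leptomeningeal covariate Vcan was at -0.011, Hapln1 at -0.034, Hapln3 at 0.11 and Pvalb at -0.035, and with the parvalbumin covariate Hapln1 was at -0.012. The neocortical, leptomeningeal and parvalbumin covariates were chosen after seeing the data.

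After the group mean of each gene was subtracted, log2 CPM of same-numbered libraries correlated at 0.18, -0.057 and 0.034 (genes of at least 5 CPM). Differently numbered libraries were not compared, so these values cannot show whether the numbers pair the mice. With the replicate number as a block 0 genes were called, and Acan was at -0.61 and Tnc at -0.50. Acan had 84 to 162 counts in n-Braf libraries and 144 to 155 in controls, with coefficients of variation of 37.8% and 5.87%, and Tnc had 121 to 243 counts in n-Braf and 201 to 219 in controls, with 29.98% and 5.95%. The difference in spread between the groups was not tested.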
